A study of Rattus norvegicus with 12 samples.

Results

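Amino acid transporters carry amino acids, and in some cases amines, taurine or creatine, across the cell membrane, and 53 genes of 7 solute carrier families were followed here in rat lung. They were all genes with a single-gene probe set and a symbol starting with Slc1a, Slc3a, Slc6a, Slc7a, Slc36a, Slc38a or Slc43a, out of 14217 genes with such a probe set. Each gene was read by its probe set with the highest mean over the 12 arrays. The right lung was profiled in inbred Dahl Salt Sensitive rats (SS) and Brown Norway rats (BN), either after ventilation of a kind given only by the letters HTV, or as controls. The groups were SS HTV, SS control, BN HTV and BN control, with 3 arrays each and a separate animal code for every array. Animals weighed 250 to 350 g, the lung vessels were flushed with buffered saline before freezing, and no genetic modification is stated for any group. The same room air description is given for every sample. Beyond it, the sources used here do not state age, length of ventilation or how the control animals breathed. Whole lung was measured, so fewer cells of a type and less RNA per cell cannot be told apart.

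These carriers fall into functional classes. Members of the Slc7 family mostly act as light chains that exchange amino acids across the membrane, and many of them reach the surface only when bound to a heavy chain, Slc3a2 or Slc3a1. The Slc1, Slc6 and Slc38 families mostly use the sodium gradient to pull glutamate, neutral amino acids, glutamine, taurine or neurotransmitters into the cell. Several of these genes are known targets of the transcription factor Atf4, which cells use when amino acids are short or protein folding is disturbed, and the endothelium of the lung is known to clear serotonin from blood. The Slc6 prefix also takes in carriers of dopamine (Slc6a3), serotonin (Slc6a4), noradrenaline (Slc6a2) and creatine (Slc6a8). The Slc7a6os gene is not a carrier: it carries the prefix because it lies next to Slc7a6 on the other strand, and it is reported beside it.

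Of the 53 genes, 30 had a mean intensity of at least 43.6, the 40th percentile of all probe sets, and were tested, and 23 were below it. Tested genes numbered 4 of 6 in the Slc1 family, 2 of 2 in Slc3, 8 of 16 in Slc6, 7 of 15 in Slc7, 0 of 3 in Slc36, 7 of 9 in Slc38 and 2 of 2 in Slc43. Mean intensities ran from 47.6 for Slc38a9 to 1093.4 for Slc3a2 among tested genes, and from 1.68 for Slc7a14 to 40.5 for Slc6a18 below the filter. Intensities are linear, scaled per array by the authors, and serve to compare arrays within a gene, not genes with each other. Differences below are HTV minus control or SS minus BN on the log2(intensity + 16) scale, where a difference of 1 is a doubling for bright genes and somewhat more for dim ones, with limma's standard error (SE) and a p-value adjusted over 18626 probe sets.

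Lung identity markers such as the surfactant genes were present on all 12 arrays, with 11 of 12 listed genes on the array and summed intensities of 24164 to 32918. One array stood apart: SS control 3 had the lowest correlation with its own group (0.9487, against 0.9632 to 0.9748 elsewhere) and the lowest array weight (0.286, against 0.622 to 1.977). It was the highest or lowest of the 12 arrays at 13 of the 30 tested genes, against 1 to 9 for each other array. Counts, and the values that turn most on this array, are therefore also given without it. Its beta-actin 5-prime to 3-prime log2 ratio, a sign of RNA integrity, was -1.413, against -0.51 and -0.233 in the other SS controls. That value lay within the range of the BN arrays, from -1.469 in BN control 2 to -0.882 in BN control 1. HTV lungs also differed in other cells' genes. The summed intensity of 10 neutrophil markers was 5884.5 to 9764.9 in SS HTV lungs, against 2010.5 to 2447.9 in SS control lungs, and 3153.4 to 12420 in BN HTV lungs, against 1190.8 to 2518.8 in BN control lungs, with no marker at 0 on all arrays. Of 9 tested neutrophil markers 8 rose with HTV averaged over strains. Of these 9, Mmp9 (1.9 to 19.3 on control arrays), Camp (4.5 to 24.4) and Cxcr2 (17.1 to 49.4) met the filter only through their HTV arrays. Among red cell and platelet markers 4 of 5 tested rose. Sums over 8 markers of this list were 3565.2 to 5598.8 in SS HTV lungs, against 1273 to 5256.7 in SS control lungs. In BN lungs they were 3011.6 to 4739.8 with HTV, against 948.1 to 3085.3 in controls. The red cell gene Hbb made up most of each sum. It was highest of the 12 arrays on SS control 3 (4547.7) and overlapped between HTV and control in both strains. Of 11 tested T and NK cell markers 5 fell, with sums over 14 markers of 1552.8 to 1694.1 in SS HTV lungs, against 1677.5 to 2689.3 in SS control lungs, and 947.3 to 1256.7 in BN HTV lungs, against 1498.5 to 1603.8 in BN control lungs. Of 3 tested B cell markers 2 fell. Their sums over 4 markers were 279.2 to 343.2 in SS HTV lungs, against 385.3 to 463 in SS control lungs. In BN lungs the B cell sums were 322.2 to 442.6 with HTV, against 498.5 to 555.8 in controls. The tested B cell marker Cd79b, with 3.3 to 29.5 on the HTV arrays, met the filter only through its control arrays. Of 11 tested endothelial markers 2 rose and 2 fell. These marker counts stand against 7.09% of all probe sets that rose and 8.74% that fell in the same average. The part of these cells in the results below was not tested.

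HTV raised Slc7a5, an exchanger of large neutral amino acids, in both strains, and the cationic amino acid carriers Slc7a6 and Slc7a1 in the average over strains. In SS lungs 1 of 30 genes passed the test, Slc7a5, which rose (3.33%, where 8.06% of all probe sets passed, 3.9% higher and 4.16% lower). In BN lungs 2 of 30 passed, Slc7a5 and Slc7a6, both of which rose (6.67%, against 5.86% of all probe sets, 3% higher and 2.86% lower). Averaged over the strains 7 of 30 passed: Slc7a5, Slc7a6, Slc7a6os, Slc7a1, Slc6a6 and Slc6a3 rose and Slc7a10 fell (23.3%, against 15.8% of all probe sets, 7.09% higher and 8.74% lower). The shares called were thus below the background in SS lungs and near it in BN lungs. In the average the share was above it, but the 7 genes include Slc7a6os, which is not a carrier, and the excess was not tested. Slc6a3 met the intensity filter only through its HTV arrays, and Slc38a9 only through its control arrays; of the 28 genes without them 6 passed in the average (21.4%). Without SS control 3 the counts were 2, 4 and 8 genes, with Slc7a6 added in SS lungs, Slc38a2 and Slc6a6 in BN lungs and Slc38a2 in the average. The matching counts over all probe sets are not given here, so these counts are not read as a gain in carriers. The median difference over the 30 genes was 0.14 in SS lungs and 0.07 in BN lungs, against -0.01 and -0.03 over all probe sets, and 21 of the 30 differences were positive in each strain. The arrays of the HTV and control groups did not overlap for 10 of the 30 genes in SS lungs and for 11 in BN lungs, where 29.8% and 26.6% of all probe sets did not overlap.

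**Figure D1:**
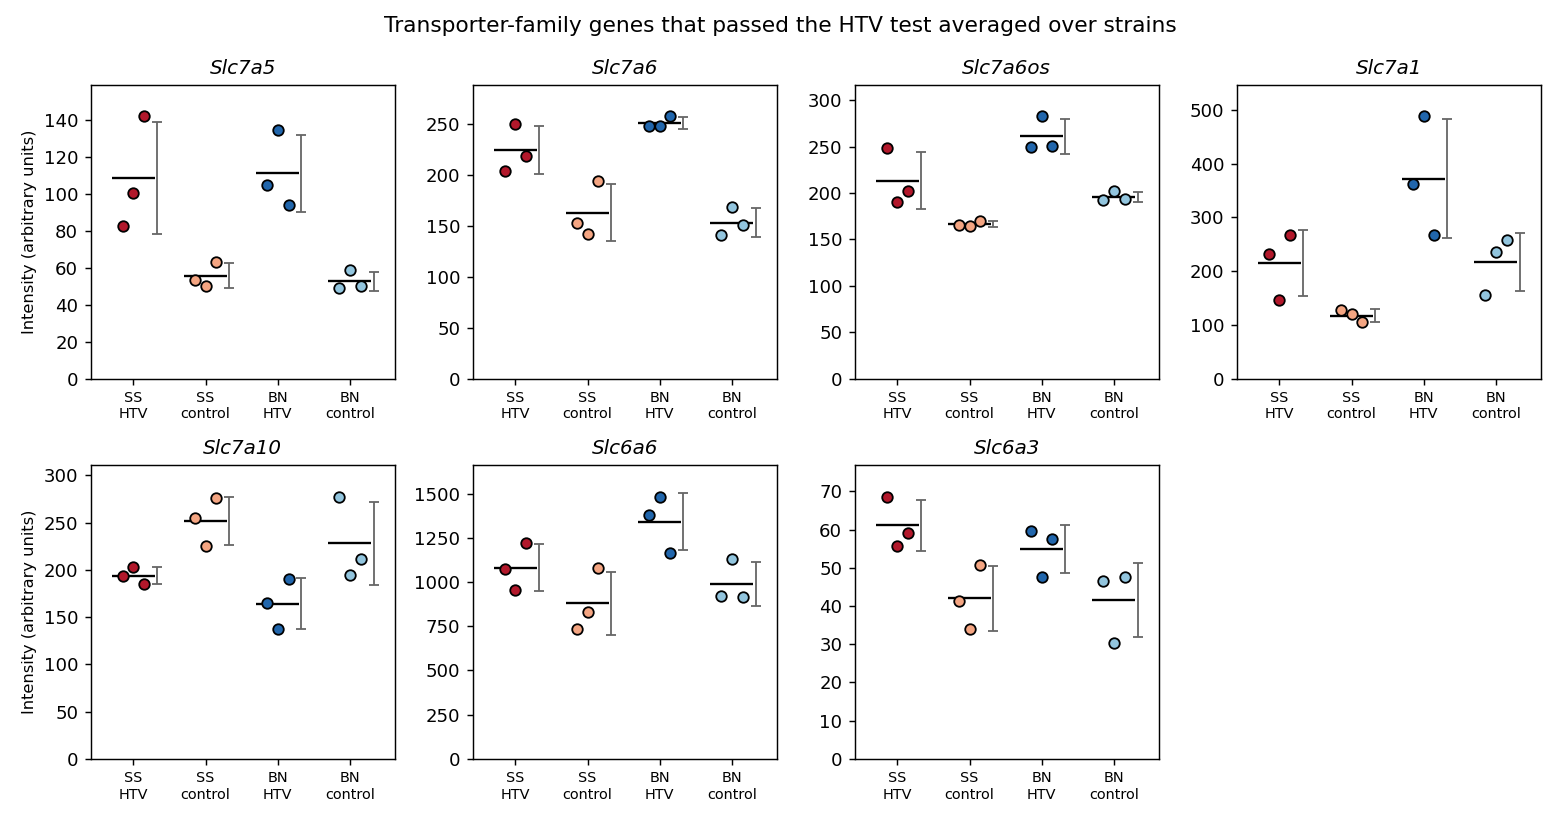
Intensity (linear, arbitrary units, each axis from 0) on every array of the 7 genes that passed the HTV test averaged over strains. Points are arrays, horizontal lines are group means and the bars beside them are ± 1 SD (n = 3); Slc7a5 and Slc7a6 sit higher on every HTV array than on every control array of the same strain, and Slc7a10 sits lower.

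Slc7a5 (probe set 1387280_a_at) encodes the light chain that exchanges large neutral amino acids such as leucine, usually for glutamine. It had intensities of 83.0, 100.7 and 142.2 in SS HTV lungs, against 53.7, 50.4 and 63.3 in SS control lungs. In BN lungs it had 105.1, 134.7 and 94.3 with HTV, against 49.2, 58.7 and 50.3 in controls. Every HTV array was above every control array, with 83.0 the lowest of the 6 HTV values and 63.3 the highest control value. Slc7a5 rose by 0.77 ± 0.18 in SS lungs (SE; 95% interval 0.39 to 1.15; adjusted p = 0.0185) and by 0.88 ± 0.18 in BN lungs (95% interval 0.50 to 1.26; adjusted p = 0.0107). The increases differed between strains by -0.11 ± 0.25 (adjusted p = 0.915). The SS call was lost without SS control 2 (adjusted p = 0.0626) and without SS HTV 3 (adjusted p = 0.0776), and the BN call without BN HTV 2 (adjusted p = 0.0546). The averaged increase of 0.83 ± 0.12 (adjusted p = 0.000635) passed in each of 21 alternatives.

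Slc7a6 (1373629_at) encodes a light chain that exports cationic amino acids such as arginine in exchange for neutral ones and sodium. Its intensities were 204.1, 250.4 and 218.3 in SS HTV lungs, against 152.5, 142 and 194.6 in SS control lungs. The BN values were 247.7, 247.7 and 257.6 with HTV, against 140.6, 168.7 and 150.5 in controls. The HTV and control arrays did not overlap in either strain, and the closest pair was SS HTV 1 and SS control 3. Slc7a6 rose by 0.66 ± 0.13 in BN lungs (adjusted p = 0.00857), and the difference was 0.43 ± 0.13 in SS lungs (adjusted p = 0.0562). The averaged rise was 0.55 ± 0.09 (adjusted p = 0.00122). The neighbouring Slc7a6os (1376664_at) had 248.5, 189.8 and 202 in SS HTV lungs, against 165.8, 163.9 and 169.8 in SS control lungs, and 249.5, 282.6 and 251.2 in BN HTV lungs, against 192.3, 201.9 and 193.6 in BN control lungs. Its arrays did not overlap in either strain, and it rose by 0.35 ± 0.08 in the average (adjusted p = 0.00886).

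Slc7a1 (1368392_at) encodes the main carrier of arginine, lysine and ornithine, which works without a heavy chain. It had 231.1, 146.4 and 267.1 in SS HTV lungs, against 127, 119.9 and 104.7 in SS control lungs, and 361.4, 488.2 and 266.6 in BN HTV lungs, against 155.1, 236 and 258.4 in BN control lungs. The groups did not overlap within either strain, and each SS group lay lower than the BN group of the same condition by its mean, 215 ± 62.0 against 372 ± 111 with HTV and 117 ± 11.4 against 217 ± 54.3 in controls (SD, n = 3). The differences were 0.76 ± 0.24 in SS lungs (adjusted p = 0.0707) and 0.73 ± 0.24 in BN lungs (adjusted p = 0.101), and the averaged rise of 0.74 ± 0.17 passed the test (adjusted p = 0.00965). A further probe set of Slc7a1 (1368391_at) rose by 0.57 ± 0.14 in the average (adjusted p = 0.0131). Its groups did not overlap in SS lungs but did in BN lungs, where BN HTV 3 had 205.4 and BN control 3 had 217.3.

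Slc7a10 (1370115_at), a light chain for small neutral amino acids such as glycine and serine, moved the other way. Its intensities were 193, 203.3 and 185.4 in SS HTV lungs, against 254.4, 225 and 275.6 in SS control lungs, and 165, 136.9 and 190.8 in BN HTV lungs, against 277.5, 194.9 and 211.9 in BN control lungs. All HTV arrays were below the control arrays of their strain, by a narrow margin in BN lungs. The averaged difference was -0.39 ± 0.10 (adjusted p = 0.0204), with -0.35 in SS lungs (adjusted p = 0.157) and -0.43 in BN lungs (adjusted p = 0.106). Without BN control 1 the averaged call was lost (adjusted p = 0.0502).

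Slc6a6 and Slc6a3 were the Slc6 genes that rose in the average. Slc6a6 encodes the taurine carrier and is read by a pair of tested probe sets. The brighter one (1374531_at) had 1071.3, 952.7 and 1219.7 in SS HTV lungs, against 732.7, 830.4 and 1077.1 in SS control lungs, and 1376.6, 1482.6 and 1165.7 in BN HTV lungs, against 918.7, 1130.7 and 912.3 in BN control lungs. The groups overlapped in SS lungs through SS control 3 and did not overlap in BN lungs. The averaged rise was 0.37 ± 0.11 (adjusted p = 0.0303), and it missed the threshold in 9 of 22 alternatives, with adjusted p up to 0.0763. The other probe set (1368778_at) had 415.5, 244.1 and 396.3 in SS HTV lungs, against 234.4, 185.8 and 181.7 in SS control lungs, and 482.3, 580.6 and 572.3 in BN HTV lungs, against 366.3, 376.5 and 313.7 in BN control lungs. Its groups did not overlap in either strain. It rose by 0.74 ± 0.18 in SS lungs (adjusted p = 0.0222) and by 0.67 ± 0.12 in the average (adjusted p = 0.00258), and the difference was 0.61 in BN lungs (adjusted p = 0.0605).

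Slc6a3 (1368601_at), the dopamine carrier, was dim on all arrays. Its control means, 42.0 in SS and 41.5 in BN lungs, were below the filter, so it was tested only because its HTV arrays were higher, and the call carries that choice. It had 68.6, 55.7 and 59 in SS HTV lungs, against 41.2, 33.9 and 50.8 in SS control lungs, and 59.5, 47.6 and 57.6 in BN HTV lungs, against 46.5, 30.4 and 47.7 in BN control lungs. The groups were apart in SS lungs and met in BN lungs, where BN HTV 2 lay just below BN control 3. The averaged rise was 0.37 ± 0.12 (adjusted p = 0.0492), and the call was lost in 15 of 21 alternatives, with adjusted p up to 0.114.

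**Figure D2:**
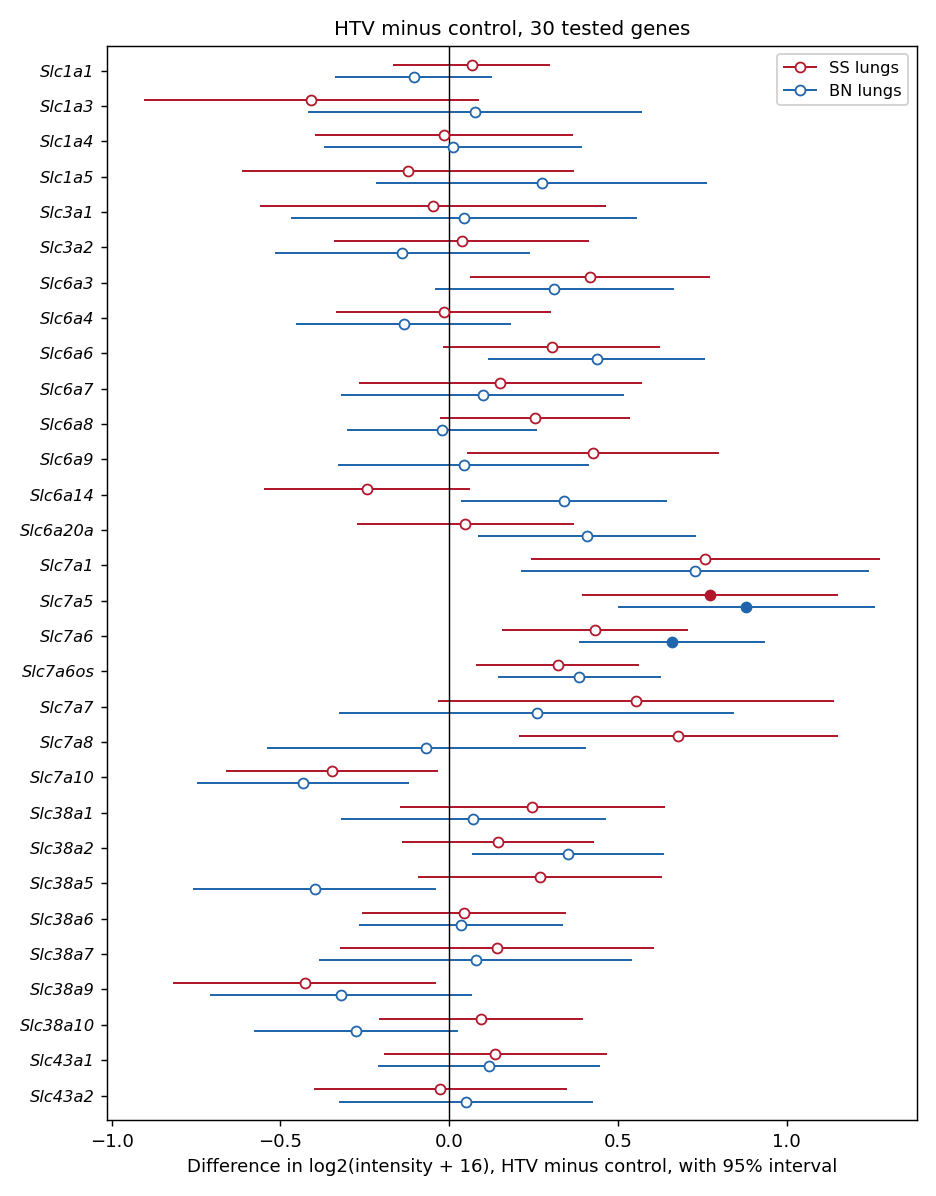
Difference between HTV and control lungs for the 30 tested genes, on the log2(intensity + 16) scale with 95% intervals, in SS lungs (red) and BN lungs (blue), 3 arrays a group. Filled points passed the adjusted test: Slc7a5 in both strains and Slc7a6 in BN lungs.

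The heavy chain that Slc7a5, Slc7a6 and Slc7a10 bind did not pass the test. Slc3a2 (1398771_at) had 1152.8, 1355.1 and 870.9 in SS HTV lungs, against 1210.4, 1302.5 and 797.6 in SS control lungs, and 1065.4, 961 and 1032.9 in BN HTV lungs, against 1120.6, 1072.5 and 1179.2 in BN control lungs. The SS groups overlapped throughout, and the BN HTV arrays lay just below the BN controls. The difference was 0.04 in SS lungs (95% interval -0.34 to 0.41; -0.18 ± 0.14 without SS control 3, adjusted p = 0.514) and -0.14 in BN lungs (95% interval -0.52 to 0.24).

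Other light chains gave values that missed the threshold. Slc7a8, an exchanger of neutral amino acids that also uses Slc3a2, had 114.9, 129 and 114.9 in SS HTV lungs, against 91.3, 59.9 and 58.3 in SS control lungs, and 166, 91.5 and 87.9 in BN HTV lungs, against 92.8, 118.4 and 143.9 in BN control lungs. The SS groups were apart and the BN groups overlapped. The difference was 0.68 ± 0.22 in SS lungs (adjusted p = 0.0751) and -0.07 in BN lungs (adjusted p = 0.912), and the difference of these differences, 0.75 ± 0.31, did not pass (adjusted p = 0.582). Slc7a7, a relative of Slc7a6 with the same exchange and known for its mutation in lysinuric protein intolerance, had 284 ± 52.0 in SS HTV lungs, against 195 ± 68.9 in SS control lungs, and 298 ± 112 in BN HTV lungs, against 240 ± 51.8 in BN control lungs (SD, n = 3). Its averaged difference was 0.41 ± 0.19 (adjusted p = 0.174), and 0.25 ± 0.16 without SS control 3 (adjusted p = 0.323).

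Of the sodium-driven carriers, none beyond Slc6a6 and Slc6a3 passed the HTV test by its brightest probe set. Slc38a2, a carrier of alanine and glutamine that cells are known to raise when amino acids are short, had 895.2, 830.6 and 947.1 in SS HTV lungs, against 707.3, 724 and 1011.6 in SS control lungs, and 736.4, 875.5 and 903 in BN HTV lungs, against 629.5, 636.3 and 686.4 in BN control lungs. The groups were apart in BN lungs, and in SS lungs SS control 3 lay above all HTV arrays. The averaged difference was 0.25 ± 0.09 (adjusted p = 0.0899), and without SS control 3 it was 0.33 ± 0.07 and passed (adjusted p = 0.00728). The glutamine exchanger Slc1a5 had an averaged difference of 0.08, its relative Slc1a4, which moves alanine, serine and cysteine, had -0.02 in SS lungs and 0.01 in BN lungs, and the lysosomal arginine-sensing carrier Slc38a9 had -0.37 ± 0.13 (adjusted p = 0.0642). The serotonin carrier Slc6a4 had 294 ± 36.3 in SS HTV lungs, against 299 ± 55.1 in SS control lungs, and 296 ± 18.8 in BN HTV lungs, against 328 ± 46.4 in BN control lungs (SD, n = 3). Its averaged difference was -0.08 ± 0.10 (adjusted p = 0.668), and -0.15 ± 0.09 without SS control 3 (adjusted p = 0.294). The other 10 tested genes had averaged differences of -0.09 to 0.23, with adjusted p of 0.165 or more. They include the glycine carrier Slc6a9, which was apart in SS lungs (difference 0.43, adjusted p = 0.144). The proline carrier Slc6a20a was apart in BN lungs (0.41, adjusted p = 0.142). At its dimmer probe set (1369704_at) the groups overlapped in both strains. The differences there were -0.11 in BN lungs (adjusted p = 0.842) and 0.34 in SS lungs (adjusted p = 0.376). The creatine carrier Slc6a8 and the leucine carriers Slc43a1 and Slc43a2 also belong to these 10. Slc1a1, a carrier of glutamate and cysteine, had the narrowest range of the tested genes, 230.2 to 308.5 over the 12 arrays.

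Slc1a3 and Slc38a1 also had probe sets that disagreed, with a call at a dimmer one. Slc1a3, a sodium-driven glutamate carrier, had an averaged difference of -0.17 ± 0.16 (adjusted p = 0.529) at its brightest probe set, where SS control 3 had 380.8 and the other 11 arrays 157.5 to 271.8; without that array it was 0.01 (adjusted p = 0.936). A dimmer probe set of the gene (1371130_at) had 75.7, 64.7 and 92.2 in SS HTV lungs, against 44.5, 44.2 and 44.2 in SS control lungs, and 107.7, 75.7 and 83.1 in BN HTV lungs, against 46.3, 59.4 and 58.3 in BN control lungs. No HTV array there overlapped a control array of its strain, and the probe set rose by 0.62 ± 0.15 in SS lungs (adjusted p = 0.0264) and by 0.56 ± 0.15 in BN lungs (adjusted p = 0.0487). The remaining probe set (1388064_a_at), with a mean just under the filter and not tested, went the other way: 44.9, 38.2 and 45.7 in SS HTV lungs, against 55.3, 53.4 and 54.1 in SS control lungs, and 31.2, 33.9 and 33.3 in BN HTV lungs, against 40.9, 43.3 and 46.7 in BN control lungs. Its HTV arrays lay below the controls in both strains, so the probe sets of Slc1a3 give no single direction. Slc38a1, a glutamine carrier, had an averaged difference of 0.16 (adjusted p = 0.441) at its brightest probe set, and a dimmer one (1372921_at) fell by 0.38 on the log2 scale (adjusted p = 0.0379). In all, 12 of the 53 genes had more than 1 probe set.

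Between the strains, the heavy chain Slc3a1 separated SS from BN lungs, and Slc38a5 differed in HTV lungs. In control lungs 1 of 30 genes passed, Slc3a1, higher in SS (3.33%, where 12.3% of all probe sets passed, 5.9% higher and 6.43% lower). In HTV lungs 2 of 30 passed, Slc3a1 and Slc38a5, both higher in SS (6.67%, against 8.37% of all probe sets, 3.9% higher and 4.47% lower). Both shares were below the background. The SS and BN arrays did not overlap for 8 genes in control lungs and 6 in HTV lungs, where 33.2% and 29.4% of all probe sets did not overlap. Without SS control 3 the counts were 1 in control lungs and 3 in HTV lungs, with Slc1a3 added, lower in SS by its brightest probe set. The matching counts over all probe sets are not given here. A dimmer Slc1a3 probe set (1371130_at) had -0.16 in HTV lungs with all arrays kept (adjusted p = 0.576). The untested one (1388064_a_at) was higher in SS, with 44.9, 38.2 and 45.7 in SS HTV lungs, against 31.2, 33.9 and 33.3 in BN HTV lungs.

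Slc3a1 (1368440_at) pairs with Slc7a9 in kidney and gut to take up cystine and cationic amino acids, and its loss causes cystinuria in humans. It had 187.9, 228.7 and 235.9 in SS HTV lungs, against 53.6, 58.8 and 62.1 in BN HTV lungs, and 282.3, 306.4 and 128.6 in SS control lungs, against 65.1, 48 and 55.4 in BN control lungs. Every SS array was above every BN array, and SS control 3, at 128.6, was the lowest SS array. SS exceeded BN by 1.65 ± 0.24 in HTV lungs (adjusted p = 0.00102) and by 1.74 ± 0.24 in control lungs (adjusted p = 0.000686), and the control difference was 2.11 without SS control 3. HTV differed from control by -0.05 in SS lungs and 0.04 in BN lungs, and without SS control 3 the SS value was -0.42 ± 0.14 (adjusted p = 0.113). It had the widest range of the tested genes over the 12 arrays, 2.33 on the log2 scale, while the median range was 0.86 over the 30 genes and 0.79 over all tested probe sets.

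Both light chains known to bind Slc3a1 were below the filter and not tested. Slc7a9 had 44.2 ± 13.3 in SS HTV lungs, against 23.5 ± 9.13 in BN HTV lungs, and 37.4 ± 11.4 in SS control lungs, against 23.0 ± 7.74 in BN control lungs (SD, n = 3). Slc7a13 had 4.1, 18.1 and 9.1 in SS HTV lungs, against 1.5, 1.6 and 1.6 in BN HTV lungs, and 5.8, 10.2 and 30.1 in SS control lungs, against 1, 2.2 and 1.8 in BN control lungs. Both genes were higher in SS than in BN lungs by group means, at intensities where the distance from background is unknown. The 5 kidney and gut markers on the array summed to 84.2 to 101.5 in SS HTV lungs, against 63.8 to 89.2 in BN HTV lungs, and to 70.1 to 75.4 in SS control lungs, against 47.1 to 65.5 in BN control lungs. Vil1, the brightest of them by mean, alone met the filter and did not pass between strains in either condition. Among the dimmer ones Nphs1 went the other way with HTV, lower on every SS HTV array than on every BN HTV array. Other tissue markers differed by strain: 7 of 9 tested cardiac muscle markers were lower in SS than in BN control lungs, with sums of 118.5 to 624.8 in SS and 1405 to 3150.2 in BN, and 4 of 8 fibroblast markers were higher in SS, with sums of 7934.5 to 9343 in SS and 5197 to 6645.7 in BN. In the same lungs 4 of 11 T and NK cell markers were higher in SS, with sums of 1677.5 to 2689.3 in SS and 1498.5 to 1603.8 in BN, and 2 of 11 endothelial markers were lower in SS, with sums of 12103 to 12808 in SS and 15908 to 16389 in BN. Of 4 liver markers 2 were higher and 1 lower in SS, with sums of 388 to 721.2 in SS and 317.2 to 389.5 in BN. In HTV lungs 3 of 9 cardiac muscle markers were lower in SS and 4 of 8 fibroblast markers were higher. There 2 of 11 T and NK cell markers and 1 of 4 liver markers were higher in SS, and 2 of 11 endothelial markers were lower. Over all probe sets 5.9% were higher and 6.43% lower in SS for control lungs. For HTV lungs the shares were 3.9% and 4.47%. The part of these markers in the strain results was not tested.

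Slc38a5 (1387970_at), which carries glutamine and histidine, had 268.8, 336.6 and 312.3 in SS HTV lungs, against 194.9, 137.5 and 185.2 in BN HTV lungs. In control lungs the values were 262.4, 312.6 and 189.7 in SS, against 231.5, 223.4 and 235.8 in BN. The strains did not overlap with HTV and overlapped in controls, where SS control 3 was the lowest array. SS exceeded BN by 0.78 ± 0.17 in HTV lungs (adjusted p = 0.0122) and by 0.11 ± 0.17 in control lungs (adjusted p = 0.691). Without SS control 3 the control difference was 0.30 ± 0.15 (adjusted p = 0.214), and the SS controls then lay above all BN controls. The beta-actin ratio also separated the HTV groups, at -1.02, -0.676 and -0.396 in SS HTV lungs, against -1.162, -1.26 and -1.364 in BN HTV lungs, and its part in the strain results was not tested. The HTV call was lost without SS HTV 2 (adjusted p = 0.0607) and without BN HTV 2 (adjusted p = 0.0542). HTV differed from control by 0.27 in SS lungs (adjusted p = 0.333; 0.08 without SS control 3, adjusted p = 0.788) and by -0.40 in BN lungs (adjusted p = 0.202).

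For Slc7a1 the strain differences did not pass the test, at -0.75 ± 0.24 in HTV lungs (adjusted p = 0.0736) and -0.78 ± 0.24 in control lungs (adjusted p = 0.0501). Its further probe set (1368391_at) had smaller ones, -0.39 in HTV lungs and -0.43 in control lungs (adjusted p = 0.254 and 0.162). The dimmer probe set of the taurine carrier Slc6a6 was lower in SS, with -0.64 ± 0.18 in HTV lungs (adjusted p = 0.0393) and -0.77 ± 0.18 in control lungs (adjusted p = 0.0143), while its brighter one had -0.31 and -0.17 (adjusted p = 0.236 and 0.465).

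**Figure D3:**
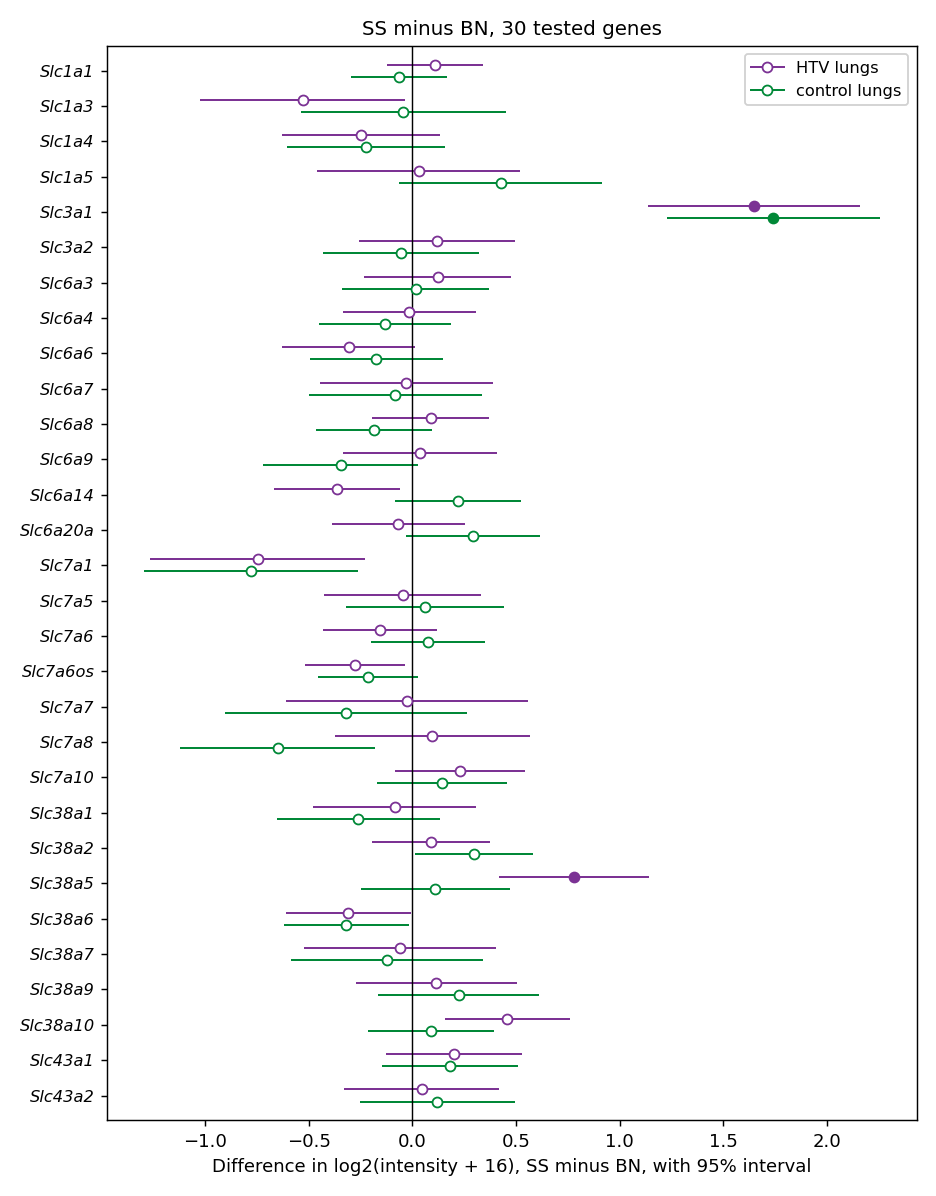
Difference between SS and BN lungs for the 30 tested genes, on the log2(intensity + 16) scale with 95% intervals, in HTV lungs (purple) and control lungs (green), 3 arrays a group. Filled points passed the adjusted test: Slc3a1 in both conditions and Slc38a5 in HTV lungs.

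**Figure D4:**
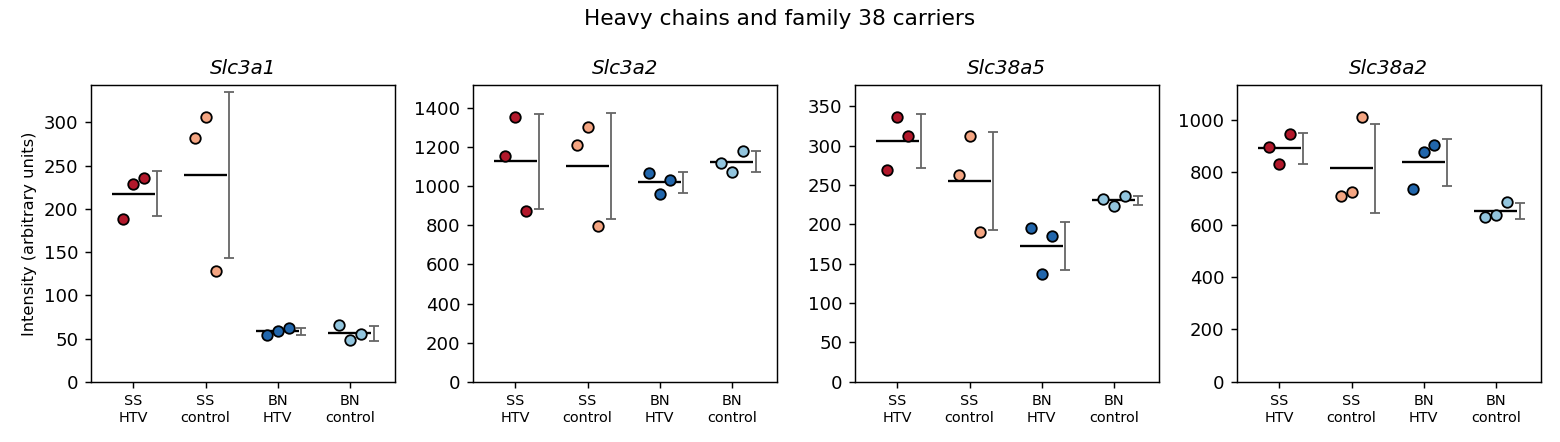
Intensity (linear, arbitrary units, each axis from 0) of the heavy chains Slc3a1 and Slc3a2 and of the carriers Slc38a5 and Slc38a2 on every array; lines are group means and bars ± 1 SD (n = 3). Slc3a1 is higher on all 6 SS arrays than on all 6 BN arrays, and SS control 3 is the lowest SS control array of Slc3a1, Slc3a2 and Slc38a5 and the highest of Slc38a2.

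Whether HTV acted differently in SS and BN lungs was tested gene by gene, and 0 of 30 genes passed (0% of all probe sets; limma). At an unadjusted p under 0.05 there were 3 genes, 10% of those tested, against 8.31% of all probe sets. The 3 genes were Slc38a5 (0.67 ± 0.24, adjusted p = 0.576), Slc7a8 and Slc6a14. Slc6a14, a carrier of neutral and cationic amino acids on airway surfaces, had 292.5, 316.3 and 325 in SS HTV lungs, against 411.3, 336.4 and 368.5 in SS control lungs, and 373, 523.3 and 338.7 in BN HTV lungs, against 328.3, 326.1 and 296 in BN control lungs. Its HTV arrays lay below the controls in SS and above them in BN, with differences of -0.24 (adjusted p = 0.302) and 0.34 (adjusted p = 0.198), and the difference between strains was -0.58 ± 0.20 (adjusted p = 0.576).

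The 23 genes below the filter were described without a test. The cystine and glutamate exchanger Slc7a11 had 36.2, 24.1 and 28.4 in SS HTV lungs, against 16.6, 20 and 28.7 in SS control lungs, and 47.5, 65.3 and 30.8 in BN HTV lungs, against 37.8, 21.8 and 42.2 in BN control lungs, so the groups overlapped in both strains. Slc6a18, a carrier of neutral amino acids in kidney, had 52.4, 40 and 55.4 in SS HTV lungs, against 22.1, 29.4 and 19.5 in SS control lungs, without overlap, and 50.7, 36.3 and 64.2 in BN HTV lungs, against 42, 35.6 and 38.5 in BN control lungs, with overlap. Slc6a15, a carrier of branched-chain amino acids and proline in brain, had 1.2 to 1.3 in SS HTV lungs, against 3.4 to 30.3 in BN HTV lungs, and 0.8 to 1.7 in SS control lungs, against 9.3 to 18.1 in BN control lungs. All 6 of its SS arrays lay below all 6 BN arrays. In all, 8 of the 23 genes had a mean intensity under 10, among them the brain glutamate carrier Slc1a2 and the glycine carrier Slc6a5. The Slc36 family of proton-driven carriers was below the filter throughout, with means of 9.23 for Slc36a1, 31.9 for Slc36a2 and 10.7 for Slc36a3. Of the further cationic amino acid carriers, Slc7a2 had a mean of 22.2 and Slc7a3 of 37.7.

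Genes around these carriers were counted in 8 lists, all for HTV averaged over strains unless named. Of 25 tested genes of the amino acid response and Atf4 targets, 8 rose and 0 fell, where 7.09% of all probe sets rose and 8.74% fell, with a median difference of 0.12 against -0.02 over all probe sets. Ppp1r15a, which restores translation after stress, rose by 1.57 ± 0.15 (adjusted p = 2.01e-05), the transcription factor Cebpb by 1.20 ± 0.12 (adjusted p = 2.44e-05) and the pseudokinase Trib3 by 0.64 ± 0.09 (adjusted p = 0.000419). Atf4 itself rose by 0.35 ± 0.07 (adjusted p = 0.00357). In single strains 4 of the 25 genes rose in SS lungs (3.9% of all probe sets) and 5 in BN lungs (3% of all probe sets), and 0 fell in either. The cytosolic aminoacyl-tRNA synthetases, which charge tRNAs with the amino acids that enter the cell, were counted at 0 higher and 1 lower of 19, with a median of -0.05, against the same shares of 7.09% and 8.74%. For lysosomal amino acid sensing and mTORC1, the growth complex that leucine and arginine activate, 1 rose and 2 fell of 19, with a median of -0.03. The genes that fell were Tsc1, an inhibitor of mTORC1 (-0.38 ± 0.07, adjusted p = 0.00298), and Lamtor5, part of its lysosomal anchor (-0.27 ± 0.07, adjusted p = 0.0134).

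The counts that follow stand against the same 7.09% of all probe sets that rose and 8.74% that fell. Of 18 genes of arginine, ornithine and polyamine metabolism 2 rose and 0 fell, with a median of 0.02. Odc1, which makes polyamines from the ornithine that Slc7a1 also carries, rose by 0.92 ± 0.13 (adjusted p = 0.000441) and passed in each strain. Of 10 genes of glutamine and glutamate metabolism 2 rose and 0 fell, with a median of 0.07, and glutamine synthetase Glul rose by 0.49 ± 0.06 (adjusted p = 0.000203). Of 14 genes of glutathione synthesis, Slc3a2 among them, 4 rose and 1 fell, with a median of -0.01. Gclc, the catalytic subunit of its rate-limiting enzyme, rose by 0.48 ± 0.08 (adjusted p = 0.00169), and Chac2, which breaks glutathione down, fell by 0.34 on the log2 scale (adjusted p = 0.0146). Of 15 amino acid carriers outside the 7 families 1 rose and 2 fell, with a median of 0.10. The mitochondrial ornithine carrier Slc25a15 rose by 0.99 ± 0.15 (adjusted p = 0.000536), and the lysosomal carriers Slc15a4 (-0.48 ± 0.08, adjusted p = 0.00114) and Slc66a1 (-0.57 ± 0.10, adjusted p = 0.00166) fell. Of 13 helpers and regulators of carriers 2 rose and 2 fell, with a median of 0.02, and Myc, a transcription factor known to raise Slc7a5, rose by 0.89 ± 0.15 (adjusted p = 0.00177).

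Promoters were read because several of the genes moved together. A window of 250 bases before to 50 after the RefSeq start on rat GRCr8 was listed for 41 of the 53 genes. Searched on both strands were a C/EBP-ATF composite element (TTNCATCA), through which Atf4 is known to act, an antioxidant response element core (TGACNNNGC) and an AP-1 site (TGANTCA). These genes had 46 listed promoters. The composite element was found in 3 of the 46 (6.52%, against 3.98% of all 33469 promoters), the antioxidant core in 8 (17.4%, against 12.1%) and the AP-1 site in 6 (13.0%, against 7.33%). The 3 genes with the composite element were Slc1a4, Slc38a1 and Slc7a1. The 4 promoters below, given 5′ to 3′ on the gene's strand with matches in capitals, belong to the gene that passed for HTV in both strains (Slc7a5), to Slc7a1 and Slc6a6 among those that rose in the average, and to the strain-dependent Slc3a1, the last 3 chosen after their values were seen. Slc7a5 is at chr19:66872363-66872662 on the minus strand, Slc7a1 at chr12:11664238-11664537 on the plus strand, Slc6a6 at chr4:125752252-125752551 on the plus strand and Slc3a1 at chr6:15394700-15394999 on the minus strand.
Slc7a5: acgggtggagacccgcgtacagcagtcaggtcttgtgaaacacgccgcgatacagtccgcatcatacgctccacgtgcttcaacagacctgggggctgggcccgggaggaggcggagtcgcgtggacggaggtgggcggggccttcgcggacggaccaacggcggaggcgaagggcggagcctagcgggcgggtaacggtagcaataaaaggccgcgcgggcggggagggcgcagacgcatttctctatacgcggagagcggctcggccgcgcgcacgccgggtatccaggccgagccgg
Slc7a1: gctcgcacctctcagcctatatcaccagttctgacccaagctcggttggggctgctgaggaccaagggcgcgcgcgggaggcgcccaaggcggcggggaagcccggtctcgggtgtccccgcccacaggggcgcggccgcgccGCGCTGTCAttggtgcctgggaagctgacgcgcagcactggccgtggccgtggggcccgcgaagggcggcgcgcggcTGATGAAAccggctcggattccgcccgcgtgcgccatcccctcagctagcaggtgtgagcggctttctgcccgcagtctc
Slc6a6: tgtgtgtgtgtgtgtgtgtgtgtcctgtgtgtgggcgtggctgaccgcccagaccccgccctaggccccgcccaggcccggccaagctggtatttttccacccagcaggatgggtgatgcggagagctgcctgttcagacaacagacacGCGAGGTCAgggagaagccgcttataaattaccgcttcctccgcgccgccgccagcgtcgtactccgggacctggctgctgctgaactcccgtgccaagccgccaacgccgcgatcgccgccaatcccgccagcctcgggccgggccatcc
Slc3a1: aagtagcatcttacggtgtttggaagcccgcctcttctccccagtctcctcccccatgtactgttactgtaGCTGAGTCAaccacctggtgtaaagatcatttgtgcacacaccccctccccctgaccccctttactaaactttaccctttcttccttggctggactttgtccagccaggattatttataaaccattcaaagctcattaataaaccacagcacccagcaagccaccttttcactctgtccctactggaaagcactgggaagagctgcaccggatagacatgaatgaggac

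The Slc7a5 window held none of the 3 motifs. The same was true of Slc7a6, Slc7a6os, Slc6a3 and Slc7a10, which passed for HTV in the average and are not shown. Slc38a5, which passed between strains in HTV lungs, also held none. Each of the 3 promoters added after the values were seen holds a match, so the promoters shown do not stand for the called genes. In Slc7a1 the composite element was read on the opposite strand as TGATGAAA, its first base 30 bases before the start, and an antioxidant core as GCGCTGTCA, 107 bases before it. Slc6a6 held an antioxidant core on the opposite strand, GCGAGGTCA, 101 bases before the start. In Slc3a1 an antioxidant core on the opposite strand (GCTGAGTCA, 179 bases before the start) overlapped an AP-1 site (TGAGTCA, 177 bases before it). A match describes letters in the window and is not a binding site.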

How the data were processed

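Right lungs of 12 rats were measured on Affymetrix expression arrays, 3 in each of 4 groups set by the labels. The authors deposited linear intensity values per probe set, and MAS5 is named per the submitters' processing notes, with version and settings not given in the sources used here. No further normalization was applied. Of 31099 probe sets 57 were controls, and a platform annotation named 1 gene for 20826, several for 436 (not used) and none for 9780. RefSeq tables of GRCr8 gave neighbours and promoters. Intensities were taken as log2(intensity + 16). The 40th percentile of mean intensity was the lower limit for testing, which 18626 probe sets met; the mean includes the HTV arrays, so a gene raised from a dim level was kept more easily. A single limma model (version 3.58.1, R 4.3.3, lmFit, then eBayes with a trend) estimated the mean of each group from all 12 arrays. The 6 comparisons were each adjusted by Benjamini-Hochberg across the kept probe sets, and 0.05 was the threshold. The 95% intervals are limma's moderated ones. Precision is limited by the number of arrays. Detection calls were not used, so the distance of single values from background is unknown. P-values weigh a difference of group means against the spread between arrays within the 4 groups. Each array has a separate animal code, so spread between animals and between arrays cannot be told apart.

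The genes, the 8 pathway lists, the 15 marker lists and the alternatives were chosen with earlier results of these data known. Every carrier gene could be named. Those past a test were described on every array, and list genes only if past the test, with at most 4 each way. Promoters were to be shown for genes past the HTV test in both strains. Lists are described by counts and medians and were not tested. Alternatives were other pseudocounts, filters, normalizations and weights, no variance trend, only the arrays compared, the mean over probe sets, SS control 3 and BN HTV 3 left out together, and each array left out in turn. The model was checked on simulated data. The 4 groups share no replicate numbers in the labels.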

Additional observations from a re-analysis of the deposited data

How the results depend on the processing

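No called carrier gene changed direction in the alternatives run, where the term takes in all genes followed, Slc7a6os among them. In SS lungs the count of carrier genes called for HTV was 1, against 2 with no filter, 0 with a filter at the 60th percentile (which removes Slc7a5), 3 with array weights, 0 with only the arrays compared, 3 with the mean of a gene's probe sets, 2 with SS control 3 and BN HTV 3 left out together, and 0 to 2 with each array left out. In BN lungs it was 2, against 1 at the 60th percentile, 4 with array weights, 5 with both arrays left out together, and 1 to 4 with each array left out. Averaged over strains it was 7, and 4 to 8 with each array left out. For SS against BN in control lungs it was 1, against 2 with a pseudocount of 1, 2 at the 60th percentile, 4 with array weights, 2 with only the arrays compared, 2 with the mean of probe sets, and 1 to 2 with each array left out. In HTV lungs it was 2, against 4 with both arrays left out together and 1 to 3 with each array left out. The difference between the strains' HTV effects gave 0 carrier genes in all 22 alternatives. Calls that held in every alternative where the gene was tested were Slc7a6 in BN lungs, Slc7a5, Slc7a6, Slc7a6os and Slc7a1 in the average, and Slc3a1 between strains. The Slc7a5 call in SS lungs was lost with only the arrays compared (adjusted p = 0.056).

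Over all probe sets the counts called ranged over the alternatives from 639 to 2114 for HTV in SS lungs (1501 as reported), 542 to 1667 in BN lungs (1091), 2196 to 3901 in the average (2947), 758 to 4138 for the strains in control lungs (2296) and 699 to 2216 in HTV lungs (1559). The causes of these shifts were not tested. Quantile normalization and median centring moved the median of all probe sets by under 0.1. No paired analysis was possible because the groups share no replicate numbers in the labels. The 23 carrier genes below the filter were not tested, and with no filter Slc6a18 passed for HTV in SS lungs and in the average.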
